A study of Mus musculus with 4 samples.

Results

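The genes described here are the Hox genes and a set of homeobox genes best known from the head: the sine oculis (Six2 and relatives), Meis, Pbx, Irx, Alx and Lhx families, Shox2 and Mkx. They were chosen by gene name alone. All names of these families in the tables were taken except 3 that the rule leaves out, which gave 68 of the 22072 genes. Of these, 39 are Hox genes and 29 belong to the other families. The 29 are called head homeobox genes below as a working name, since many of them are also used in the trunk, limb or brain. Their expression was read in the mesenchyme around the developing molars of the mouse at embryonic day 14.

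Molar mesenchyme was cut by laser from frozen head sections, and cDNA for sequencing was made from its total RNA. The groups were upper molars and lower molars of control embryos labelled Msx1+/-, and upper molars and lower molars of mutant embryos labelled Msx1-/-, all at embryonic day 14 and on a mixed strain background. Every group was 1 library made from pooled tissue of 3 pairs of control and mutant samples, per the series' design text. The controls carry 1 mutant copy of Msx1, although the series' title calls them wild type, so no library without a mutant allele was compared. Msx1 itself encodes a homeodomain factor of tooth mesenchyme, and the labels do not name the mutant allele.

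Homeobox genes encode transcription factors that bind DNA through a homeodomain. Hox genes lie in clusters and give cells their position along the body axis from the hindbrain backwards. The neural crest cells that form the jaws and the tooth mesenchyme are known as a population without Hox expression, and Hoxa2 marks the neighbouring hyoid arch. Meis and Pbx proteins belong to the TALE class of homeodomain proteins and bind DNA together with Hox and many other factors. Sine oculis proteins such as Six2 work with Eya coactivators, and Lhx proteins with the adaptor Ldb1.

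Values are FPKM, which scales the fragments of a transcript by its length and by the depth of the library. Each series of values names first the upper and lower molars of the controls and then the upper and lower molars of the mutants. Differences are on the log2(FPKM + 1) scale, where changes of low genes come out too small. A gene was called measured when its mean over the libraries was at least 1 FPKM, and it was called higher or lower when the difference was at least 1 in size. No group had a second library, so no difference below has a replicate check and no p-value is given for a gene. Read sequence over annotated transcripts came to between 264 and 410 megabases per library. The median difference of all 10537 measured genes between mutant and control was -0.03 in upper molars and -0.39 in lower molars. Differences relative to these medians are therefore given for the genes that were called. Msx1, the targeted gene, stood at 170, 184, 126 and 85.9 FPKM. With the allele unnamed and exons not resolved, these levels do not check the genotype labels.

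Promoter sequences were at hand for 41 of the 68 genes, from RefSeq on build GRCm38.p6. Shown here are the 250 bases before the start site of Six2, the most abundant head homeobox gene, of its near-silent neighbour Six3, of Shox2, which was higher in the mutant upper library, and of Hoxa2. Each is written 5′ to 3′ on the gene's own strand. Capitals mark the homeodomain core ATTA, the Meis site TGACAG and the Msx site TAATTG on either strand, and TAATTG holds the reverse complement of ATTA.
Six2 chr17:85688255-85688504 (minus strand): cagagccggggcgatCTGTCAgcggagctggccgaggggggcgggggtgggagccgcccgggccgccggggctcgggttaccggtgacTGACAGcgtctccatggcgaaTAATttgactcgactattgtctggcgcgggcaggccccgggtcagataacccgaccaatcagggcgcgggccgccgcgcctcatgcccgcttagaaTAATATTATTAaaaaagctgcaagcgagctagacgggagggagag
Six3 chr17:85620584-85620833 (plus strand): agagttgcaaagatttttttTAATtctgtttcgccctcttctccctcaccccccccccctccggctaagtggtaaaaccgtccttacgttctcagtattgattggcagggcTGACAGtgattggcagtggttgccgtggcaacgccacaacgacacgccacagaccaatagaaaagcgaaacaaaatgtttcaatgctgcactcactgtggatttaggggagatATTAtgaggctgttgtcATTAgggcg
Shox2 chr3:66981772-66982021 (minus strand): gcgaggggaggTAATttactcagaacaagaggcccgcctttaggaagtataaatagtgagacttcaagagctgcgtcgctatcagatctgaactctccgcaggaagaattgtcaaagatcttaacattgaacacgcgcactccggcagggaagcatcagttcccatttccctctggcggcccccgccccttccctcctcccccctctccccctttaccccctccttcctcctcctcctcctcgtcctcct
Hoxa2 chr6:52164832-52165081 (minus strand): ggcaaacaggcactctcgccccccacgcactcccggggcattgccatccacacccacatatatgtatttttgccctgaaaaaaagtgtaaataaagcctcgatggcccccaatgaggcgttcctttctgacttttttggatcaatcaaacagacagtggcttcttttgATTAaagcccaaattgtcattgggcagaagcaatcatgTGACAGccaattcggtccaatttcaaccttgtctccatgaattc

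The stretch before Six2 held 26 CpG dinucleotides, 4 copies of ATTA and 2 of TGACAG. The stretch before Six3 held 10 CpG dinucleotides, 3 copies of ATTA and 1 of TGACAG. Both genes thus carried both motifs before the start. In the full window of 300 bases, which ends 50 bases after the start, ATTA was found in 17 of 22 Hox promoters and in 10 of 19 head homeobox promoters, against 58.3% of all 27025 promoters of that length. TGACAG was found in 2 Hox and 6 head homeobox promoters, against 19.3% of all. TAATTG was found in 2 Hox promoters and 0 head homeobox promoters, against 8.15% of all. The observed to expected ratio of CpG had a median of 0.594 in Hox promoters and 0.713 in head homeobox promoters, and the median of all promoters was 0.389. Matches are a description of the letters and not evidence of binding.

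Hox genes were almost unread in these libraries. None of the 39 was measured, whereas 12 of the 29 head homeobox genes were, against 49.5% of all 21293 genes. Not a single Hox gene reached 1 FPKM in any library, and 15 head homeobox genes did. In all 4 libraries 25 Hox genes were listed at 0, and only 4 had a value above 0 throughout (Hoxb4, Hoxb9, Hoxc8 and Hoxd8). For Hoxb4 the values were 1.63e-05, 0.027, 7.9e-06 and 9.32e-05 FPKM, too small to count as read in each library. The highest single Hox value was 0.458 FPKM, in Hoxd8. Summed over the 39 genes, FPKM came to 0.618, 0.486, 0.838 and 0.379, and over the 29 head homeobox genes to 309, 231, 295 and 154.

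The amount of sequence behind these values shows how little was read. Coverage times transcript length gave 1.29, 0.742, 1.70 and 0.746 kilobases of read sequence over all Hox transcripts. Over the head homeobox transcripts it gave 965, 576, 929 and 429 kilobases, which is 647 times as much in the libraries together. Read sequence over Hoxd8 came to 1.26 kilobases in all 4 libraries, over Hoxc8 to 0.943 and over Hoxb9 to 0.712, and these 3 genes held most of the Hox total of 4.48 kilobases. At this depth a low Hox level in a few cells would not be told from none.

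**Figure D1:**
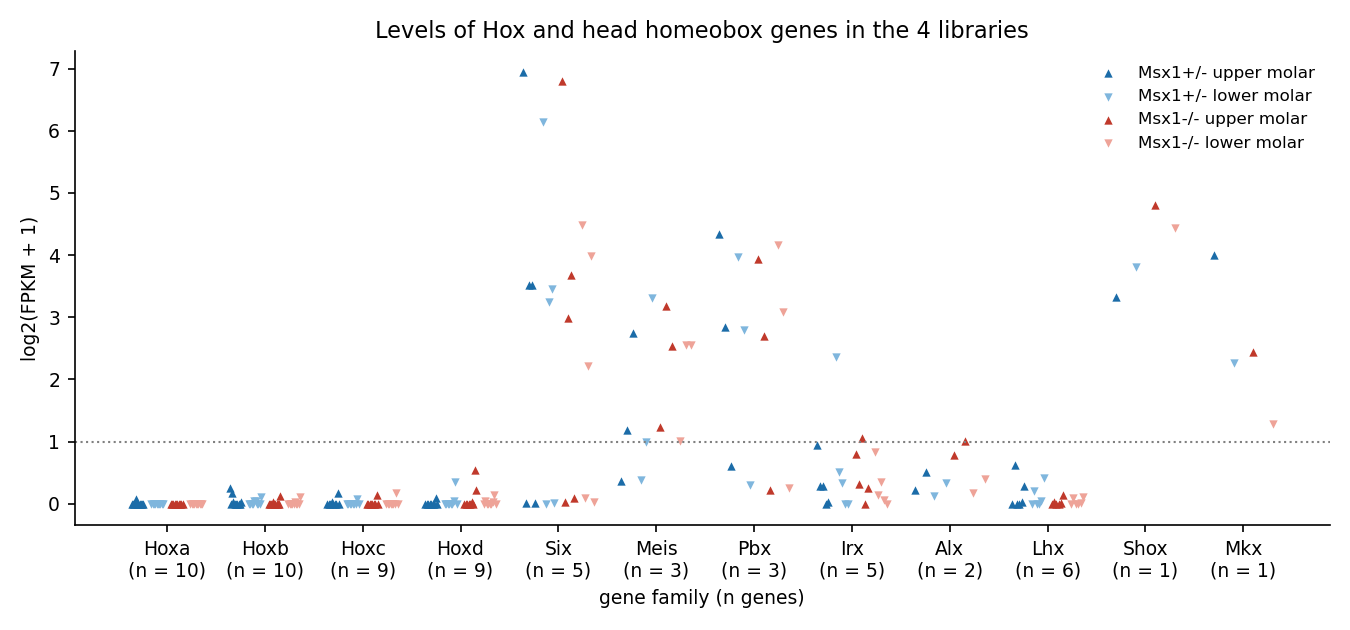
Levels of Hox and head homeobox genes as log2(FPKM + 1), by family, with 1 point per gene and library and the number of genes drawn under each family name. The dotted line is 1 FPKM; all Hox points lie below it, and Six2, Pbx2, Shox2 and Mkx are among the genes with points well above it.

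The traces of Hox sequence were spread unevenly over genes and libraries. Hoxd8 was at 0.0691, 0.277, 0.458 and 0.0986 FPKM, Hoxc8 at 0.128, 0.0509, 0.0969 and 0.127 FPKM, and Hoxb9 at 0.0223, 0.0777, 0.0935 and 0.0823 FPKM. These genes of central and posterior position, known from the trunk, were above 0 in every library, and their order among libraries was not shared. Of the 8 anterior genes (paralog groups 1 to 3), Hoxa2, Hoxb1 and Hoxb2 were above 0 in the control upper library alone, at 0.0539, 0.186 and 0.127 FPKM. Hoxb3 was above 0 in both upper molar libraries (0.0151 and 0.0144 FPKM) and Hoxd3 in mutant upper molars alone (0.0158 FPKM). Read sequence over Hoxa2, Hoxb2 and Hoxb3 came to 0.0948, 0.216 and 0.104 kilobases in the libraries together. With so little sequence, a value of 0 in a library cannot be told from a low level. The Hoxa cluster was the emptiest, with 10 of its 11 genes listed at 0 in all libraries. In Hoxc that held for 7 of 9 genes, in Hoxb for 4 of 10 and in Hoxd for 4 of 9.

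Genes beyond the clusters were read, at distances that differed between clusters. The Hoxa cluster, on chromosome 6, had Hibadh, a mitochondrial enzyme gene, 285 kilobases beyond Hoxa13 at 3.17, 5.08, 3.98 and 4.86 FPKM, and Cbx3, a heterochromatin protein gene, 672 kilobases away on the other side at 64.4, 66.8, 59.2 and 48.3 FPKM. Skap2, 143 kilobases from the cluster, was at 0.705, 0.662, 0.893 and 0.736 FPKM, and Evx1, itself a homeobox gene, was at 0, 0, 0 and 0.0362 FPKM. The Hoxd cluster (chromosome 2, 74506367 to 74603199, mm9) lay 60.7 kilobases from Mtx2, which encodes a mitochondrial import protein (10.9, 16.7, 11.0 and 12.8 FPKM), and 89.4 kilobases from Lnp (2.53, 2.37, 2.66 and 1.38 FPKM). Evx2, 8.89 kilobases from Hoxd13, was listed at 0 in every library.

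The Hoxc cluster (chromosome 15, 102751562 to 102867283) had Smug1, a DNA repair gene, 116 kilobases away (1.51, 2.31, 1.95 and 1.5 FPKM) and Calcoco1 199 kilobases away on the other side (7.37, 6.84, 8.43 and 7.61 FPKM). Around the Hoxb cluster (chromosome 11, 96055675 to 96229567) the nearest genes were also quiet. Ttll6 and Skap1 were at or below 0.0655 FPKM, and the nearest well-read gene was Atp5g1, a subunit gene of the mitochondrial ATP synthase, 119 kilobases away (62.5, 71.1, 53.4 and 41.2 FPKM). Hoxa11as, the antisense partner of Hoxa11, was listed at 0 in every library.

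**Figure D2:**
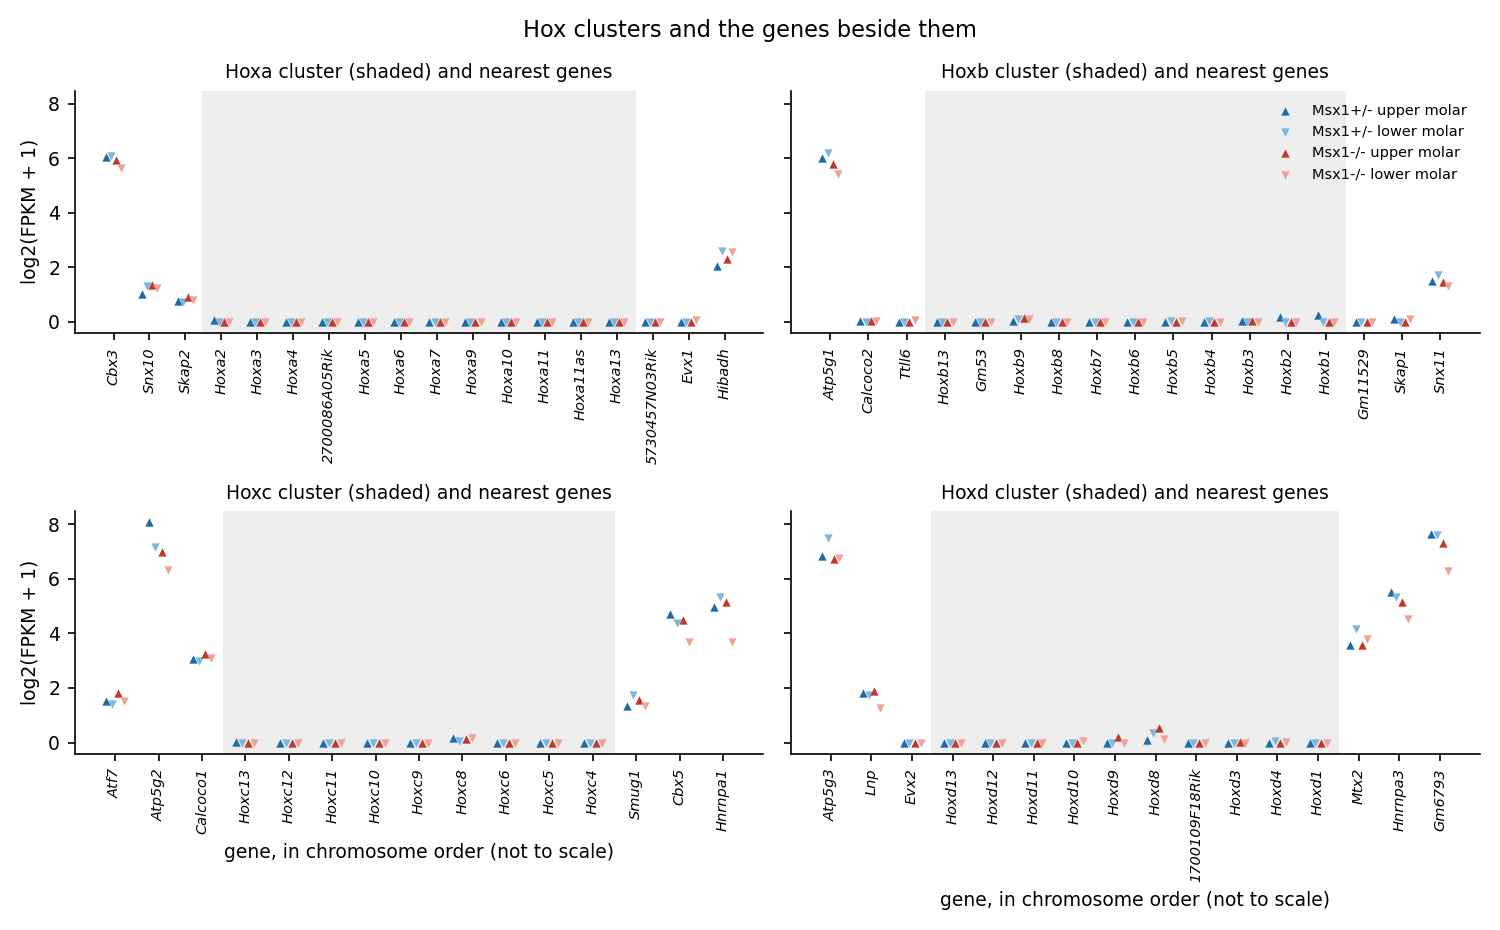
Each panel shows a Hox cluster (shaded) and the 3 nearest annotated genes on either side, in chromosome order and not to scale, as log2(FPKM + 1) in the 4 libraries. Points in the shaded stretches stay near 0, and genes such as Cbx3, Atp5g1, Cbx5 and Mtx2 outside them are read in every library.

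The sine oculis genes were the most abundant. Six2, known from progenitor cells of the kidney and from head mesenchyme (chromosome 17, 86083608 to 86087594), was at 122, 69.3, 111 and 21.3 FPKM. Its level ranked 208, 382, 203 and 898 among the 10537 measured genes. The mutant lower library was thus the low one, while both upper molar libraries were similar. Mutant minus control came to -0.13 for upper and -1.66 for lower molars, or -1.27 relative to the median, so Six2 was called lower in lower molars and was not called in upper molars. In a pooled bulk sample, fewer cells of a type and less RNA per cell cannot be told apart.

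Six4 (chromosome 12, 74201246 to 74214232) was at 10.4, 8.51, 6.92 and 3.63 FPKM. It was lowest in the mutant lower library, as Six2 was. Six4 differed by -0.53 and -1.04 and was lower in lower molars, but this was -0.65 relative to the median and was not called after any of the 3 rescalings.

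Six5, which lies beside the myotonic dystrophy kinase gene (chromosome 7, 19679893 to 19683694), went another way, at 10.5, 9.94, 11.9 and 14.8 FPKM. Its differences of 0.16 and 0.53 were not called on the deposited values. The lower molar value became 1.01, and was called, when libraries were set to equal upper quartiles. Six3 and Six6, the members known from eye and forebrain, were nearly absent, at no more than 0.0639 and 0.0609 FPKM. Six3 lies 58.1 kilobases from Six2 with 0 annotated genes between them. These neighbours thus differed widely in level.

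Among the TALE genes, Meis2 and Meis1 stood higher in the mutant libraries, and Pbx2 and Pbx3 were read at moderate levels in all of them. Pbx2 was at 19.2, 14.7, 14.4 and 16.9 FPKM, and Pbx3 was at 6.2, 5.94, 5.49 and 7.44 FPKM. Neither was called in any comparison. Pbx4, known from germ cells, was at 0.516, 0.237, 0.168 and 0.193 FPKM.

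Meis2, a TALE partner gene active in cranial neural crest, heart and limb (chromosome 2, 115687000 to 115890794), was at 1.27, 0.987, 8.08 and 4.90 FPKM. Both mutant libraries were above both control libraries. The share of all genes with both mutant libraries on the same side of both controls was not taken. This limit also holds for Meis1, Shox2, Lhx2 and Lhx9 below, and the jaws are not replicates of a genotype. The plain ratio of mutant to control was 6.35 in upper and 4.96 in lower molars. On the log2 scale the differences were 2.0 and 1.57, which ranked 20 and 30 from the highest among 10537 genes, and they were 2.03 and 1.96 relative to the medians. Meis2 was the only head homeobox gene called higher in both jaws. With a pseudocount of 5 the lower molar difference was 0.73 and was not called, and a filter at 5 FPKM left Meis2 out. The entry of 4716 bases held 41.4%, 49.2%, 58.2% and 74.2% of the Meis2 FPKM. The 6 Meis2 entries share most of their sequence, so this split is an estimate.

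Meis1 (chromosome 11, 18780431 to 18918972) stood below the level required of a measured gene, at 0.295, 0.299, 1.35 and 1.0 FPKM. The control libraries were alike, and both mutant libraries were above them by a ratio of 4.57 in upper and 3.35 in lower molars. Meis3 (5.72, 8.89, 4.81 and 4.86 FPKM) did not share this order and was highest in control lower molars, with differences of -0.21 and -0.76. Summed over the Meis genes, FPKM came to 7.29, 10.2, 14.2 and 10.8. The family total therefore moved less than Meis2 or Meis1 did.

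Shox2, a gene required for the palate, the jaw joint and the cardiac pacemaker (chromosome 3, 66777191 to 66785693), was at 8.98, 12.9, 27.0 and 20.7 FPKM. Both mutant libraries were above both controls. The difference was 1.49 in upper molars (1.52 relative to the median), rank 41 from the highest of all genes, and 0.64 in lower molars, rank 235. Shox2 was therefore higher in upper molars on the deposited values. After rescaling by median of ratios the lower molar difference was 1.04 and Shox2 was called in both jaws, and the other 2 rescalings gave 1.12 and 1.10.

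Mkx, an atypical TALE homeobox gene known for tendon formation (chromosome 18, 6934964 to 7004777), was at 15.0, 3.81, 4.42 and 1.44 FPKM. The control upper library was high and the mutant lower library was low. In upper molars Mkx was lower in the mutant, with a difference of -1.56 (-1.53 relative to the median) and a ratio of control to mutant of 3.39. In lower molars the difference was -0.98, just short of the threshold, and -0.59 relative to the median. Markers of tendon did not all move one way. Of the 5 tendon genes 4 were measured, and their summed level was 12.4, 17.3, 10.7 and 6.33 FPKM. Tnmd (1.69, 3.71, 0.347 and 0.101 FPKM) and Thbs4 (1.48, 2.84, 0.222 and 0.147 FPKM) were lower in the mutant in both jaws, and Scx, the tendon transcription factor gene, was at 4.86, 5.08, 3.76 and 2.56 FPKM. Fmod (4.32, 5.40, 5.70 and 3.35 FPKM) and Kera (0.0174, 0.283, 0.685 and 0.175 FPKM) were above control in mutant upper molars and below it in mutant lower molars. Kera was the tendon gene that was not measured. The tendon sum was highest in control lower molars and Mkx in control upper molars, and both were lowest in mutant lower molars. The part of tendon cells in the Mkx values was not tested.

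Irx1 was the only measured Irx gene (chromosome 13, 72095680 to 72101171), and it was so through 1 library, at 0.919, 4.16, 0.741 and 0.775 FPKM. Having passed through control lower molars alone, it had to be highest there. Its mutant minus control difference of -1.54 in lower molars (-1.15 relative to the median) is therefore given as a description. In upper molars it was -0.14. Irx2 and Irx4, of the same gene cluster, were at 0.217, 0.419, 0.244 and 0.0977 FPKM and at 0, 0, 0 and 0.0428 FPKM. Irx2 was also highest in the control lower library. Irx3 was at 0.215, 0.263, 1.08 and 0.274 FPKM and Irx6 at 0.0168, 0, 0.198 and 0 FPKM, and both were highest in mutant upper molars.

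Alx genes, known from the frontonasal mesenchyme of the upper face, were all below 1 FPKM on average. Alx4 was at 0.431, 0.266, 1.02 and 0.322 FPKM and Alx1 at 0.171, 0.0875, 0.719 and 0.127 FPKM. The mutant upper library was the high one for both, by a ratio to control of 2.37 for Alx4 and 4.21 for Alx1. In lower molars the ratios were 1.21 and 1.46. Of the 14 head homeobox genes with a mean below 1 FPKM that were above 0 in some library, 7 had their highest value in mutant upper molars, against 28.5% of all genes of that kind. Of the 12 measured head homeobox genes 2 had their highest value there, against 20.6% of all measured genes. Alx1, Alx4, Irx3, Irx6, Meis1 and Six6 were among the low genes highest in that library.

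Lhx genes of the rule, which pattern the forebrain, motor neurons, gonad and limb, were not read or barely read. Lhx1, Lhx3 and Lhx4 were listed at 0 in every library. Lhx2 was at 0.538, 0.149, 0.0232 and 0.0623 FPKM and Lhx9 at 0.221, 0.332, 0.0982 and 0.0781 FPKM, and both were lower in both mutant libraries than in both controls. Lhx5 did not exceed 0.0268 FPKM. At such levels the log2(FPKM + 1) differences stayed under the threshold.

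**Figure D3:**
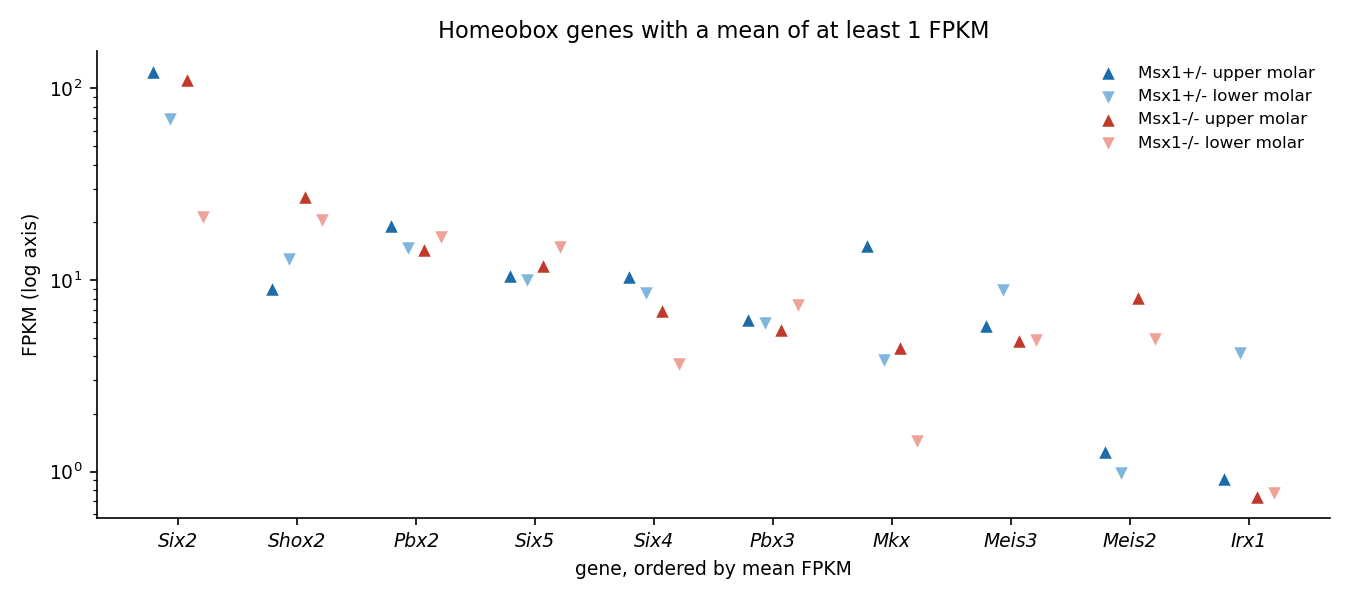
FPKM on a log axis of 10 of the measured head homeobox genes, ordered by mean, with 1 point for each library. The mutant lower molar point is lowest for Six2, Six4 and Mkx, and both mutant points lie above both control points for Shox2 and Meis2.

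Taking the 12 measured genes as a set, 2 were higher in the mutant in upper molars (Meis2 and Shox2), where 1.07% of all genes were. In upper molars 1 was lower (Mkx), where 3.26% of all genes were. In lower molars 1 was higher (Meis2), against 0.864% of all genes, and 3 were lower (Irx1, Six2 and Six4), against 9.43%. Irx1 was measured only through its control lower value, which fixed the direction of its difference, and without Irx1 2 of 11 were lower. In both jaws 1 was higher, against 0.399% of all genes, and 0 were lower, against 1.59%. The median difference of the 12 was -0.15 in upper and -0.69 in lower molars, compared with -0.03 and -0.39 over all genes. These counts are small, and they were read with earlier results of the same libraries known. Whether the genotype difference of Six2 or Irx1 differs between jaws was not tested.

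**Figure D4:**
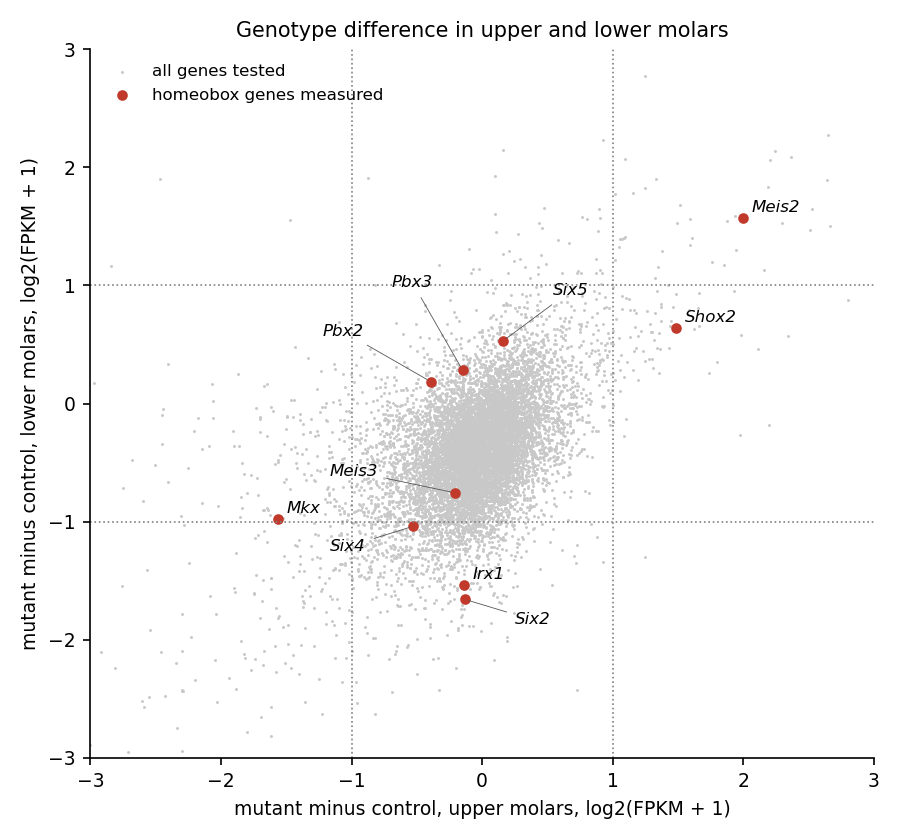
Mutant minus control difference in log2(FPKM + 1) in upper molars (x axis) against lower molars (y axis), with all measured genes in grey, 10 of the measured head homeobox genes in red and dotted lines at -1 and 1. Meis2 lies past both lines and Shox2 past the upper molar line alone; 32 genes lie outside the axes.

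The comparison of upper with lower molars of the same genotype asked which genes mark the jaw. Mkx was higher in upper molars of either genotype, by 1.73 in controls and 1.15 in mutants, which ranked 43 and 193 from the highest. Relative to the medians this was 1.82 and 0.88, and Mkx was not called in mutants after any of the 3 rescalings. Six2 was higher in upper molars by 0.80 in controls and 2.33 in mutants, rank 8 of all genes, and was called in mutants alone. Irx1 was higher in lower molars of controls by 1.43, a direction set by the library through which it was measured. Its upper minus lower difference was -0.03 in mutants.

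By count, 1 of the 12 was higher in upper molars of controls, against 1.48% of all genes, and 2 in upper molars of mutants, against 3.22%. Higher in lower molars was Irx1 alone in controls, where 0.218% of all genes were. Nothing is read from this count, since the filter fixed the direction of the Irx1 difference. In mutants 0 were, against 0.418%. In both genotypes 1 was higher in upper molars, against 0.133%, and 0 were higher in lower molars, against 0.0285%. The jaw and genotype comparisons share libraries. Six2 in mutants illustrates this, since its low mutant lower value enters both the genotype difference in lower molars and the jaw difference in mutants.

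**Figure D5:**
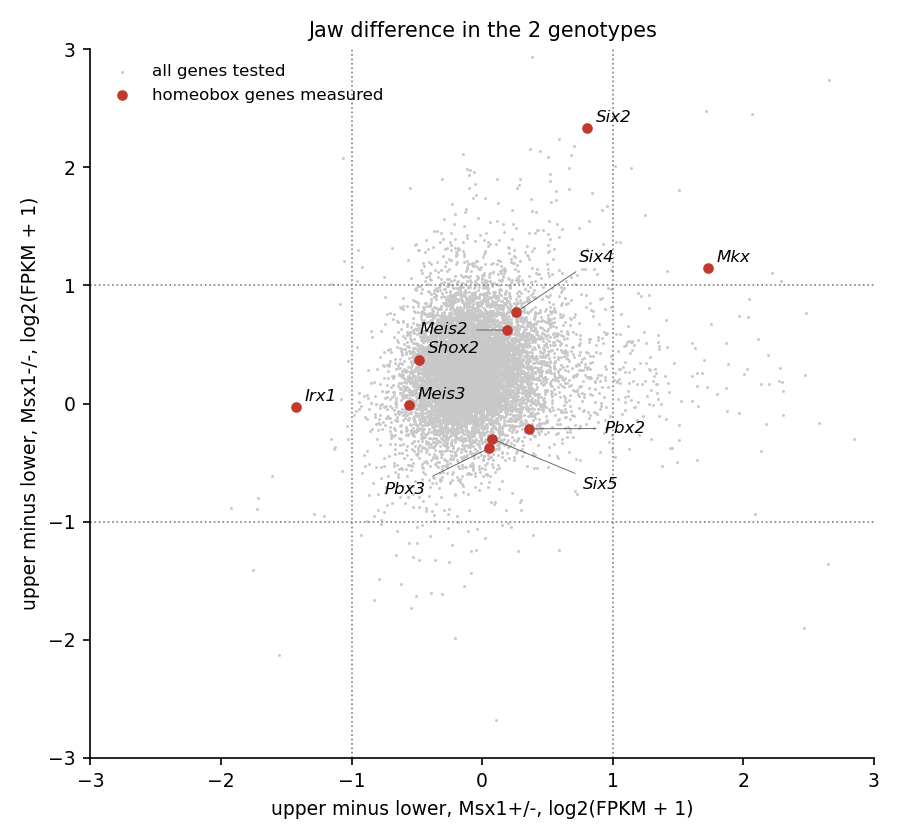
Upper minus lower difference in log2(FPKM + 1) in controls (x axis) against mutants (y axis), drawn as in the plot of genotype differences. Mkx lies past 1 on both axes, Six2 past 1 in mutants alone and Irx1 past -1 in controls alone; 12 genes lie outside the axes.

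Genes whose products work with these homeodomain proteins were read at moderate levels. Of 11 genes for partners of the sine oculis proteins, 10 were measured, and 1 was lower in the mutant in upper molars (the corepressor gene Tle3 at 19.2, 9.46, 8.81 and 9.0 FPKM), against 3.26% of all genes, and 0 in lower molars, against 9.43%. The largest mean difference was in Tle1, another corepressor gene, at 10.5, 10.8, 6.01 and 5.23 FPKM, followed by Sobp (7.17, 5.78, 3.33 and 4.08 FPKM) and Dach1 (0.991, 1.49, 2.05 and 2.91 FPKM). None of these 3 was called in either jaw. Eya1, chosen after its values were seen, is the main Eya gene of this tissue by level and was at 18.5, 14.7, 16.1 and 8.92 FPKM. It was lowest in mutant lower molars, as Eya3, Tle1, Tle2 and Tle4 also were. The other measured genes of the list were not. The median of the list was -0.19 in upper and -0.27 in lower molars.

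All 4 of the other TALE genes were measured and none was called in either jaw, where 3.26% of all genes were lower in upper and 9.43% in lower molars, with Tgif1 at 9.58, 10.2, 9.25 and 5.08 FPKM and Pknox1, which encodes a Meis-related Pbx partner, at 4.30, 4.42, 3.78 and 2.55 FPKM. Of 13 LIM factor and cofactor genes 7 were measured. Only Ssbp4, a stabiliser of Ldb complexes, was called, and it was lower in both jaws (30.9, 17.0, 8.55 and 7.19 FPKM), as 1.59% of all genes were. Ldb1 was at 25.0, 25.8, 27.2 and 17.3 FPKM.

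The chromatin regulators known to keep Hox genes off or on were present although the Hox genes were not read. Of 19 such genes that had an entry, 14 were measured and 0 were called in any genotype or jaw comparison, where between 0.218% and 9.43% of all genes were called in a given direction. The Polycomb genes Phc2 (14.9, 19.6, 10.4 and 10.1 FPKM) and Suz12 (11.9, 9.89, 7.84 and 6.43 FPKM) had the largest mean differences. The homeobox genes Cdx1, Cdx2 and Cdx4, activators of Hox genes in the trunk, were listed at 0 in every library.

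Markers of tissues that laser capture could have included are given as summed FPKM. Dental mesenchyme markers (8 of 8 measured) summed to 590, 527, 441 and 337, with Pax9 at 45.7, 46.3, 68.1 and 66.1 FPKM, Barx1 at 104, 74.5, 86.4 and 83.4 FPKM, and Prrx1 at 130, 136, 163 and 117 FPKM. Of the 8, 3 were lower in the mutant in both jaws, against 1.59% of all genes. They were Lef1 (117, 93.5, 23.1 and 11.3 FPKM), Runx2 (70.7, 52.0, 26.4 and 11.8 FPKM) and Prrx2 (83.9, 73.7, 26.6 and 25.8 FPKM). All 8 markers of the labelled tissue were thus read, and their sum was lower in the mutant of each jaw. Epithelial markers (6 of 10) summed to 27.9, 44.3, 48.5 and 64.3 and cartilage markers (3 of 6) to 6.71, 5.54, 14.1 and 20.9. Both sums were higher in mutant than in control libraries of the same jaw, as Meis2 and Shox2 were. Within the cartilage list Sox9 was at 3.12, 1.77, 5.28 and 3.21 FPKM, and among osteoblast markers Ibsp was at 4.25, 2.40, 19.1 and 9.21 FPKM. Both were higher in mutant upper than in mutant lower molars, and the median of all measured genes was also higher there, by 0.27. Sp7 and Alpl shared this order. Col2a1 (4.59 and 7.20 FPKM in mutant upper and lower molars), Hapln1 (3.93 and 10.3 FPKM) and Ifitm5 (4.11 and 5.44 FPKM) had the opposite order. Between genotypes the osteoblast markers were split. Ibsp and Ifitm5 were higher in the mutant in both jaws, as 0.399% of all genes were. Spp1 (5.70, 6.92, 0.0217 and 0.0213 FPKM) was lower in both, as 1.59% were. Sp7, Dmp1 and Bglap were below control in both jaws but were not called.

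Skeletal muscle markers (2 of 11 measured, with Ckm at 0 throughout) summed to 4.99, 6.68, 4.18 and 4.93, and neuron and glia markers (1 of 12) to 5.43, 5.77, 3.87 and 5.91. Osteoblast markers (5 of 7) summed to 34.1, 33.7, 50.4 and 31.5. Endothelial markers (8 of 8) summed to 64.6, 59.2, 51.7 and 49.9, macrophage markers (6 of 8 in the tables) to 18.6, 24.1, 25.9 and 31.3, and erythroid markers (5 of 7) to 753, 930, 519 and 674. The part of these tissues in the values of single homeobox genes was not tested.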

How the data were processed

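Gene expression was read in 4 libraries of laser-captured molar mesenchyme, 1 per genotype and jaw. Reads were aligned to mm9 with Bowtie 0.12.7 and TopHat 1.4.1, per the submitters' processing notes. Per the file headers, the authors' tables hold an FPKM value and a coverage signal for each of 28107 RefSeq transcript entries in the Cufflinks layout. No source used here gives a Cufflinks version. The labels do not say that the cDNA kit keeps strand, and 0 of the 12 measured genes overlapped another gene of the tables other than small RNAs.

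FPKM was summed per gene name (22072 genes). Genes with a failed estimate (66) and small RNA names (715) were left out, and a gene was kept if its mean reached 1 FPKM (10537). Differences were taken on log2(FPKM + 1) as deposited, and a size of at least 1 was called. Coverage times length gave the read sequence per gene. Whole reads were not recovered, so no counting interval is given. Start positions count from 0 in the tables, and 1 was added. Promoters came from RefSeq on GRCm38.p6, and their coordinates were not mixed with mm9.

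Tried as alternatives were a pseudocount of 0.1 or 5, no filter, a mean of at least 5 FPKM, 3 rescalings (median of ratios, upper quartile, total), the largest entry per gene, and a limma 3.58.1 model of genotype and jaw over the 4 libraries, which was tested on simulated data. The text names members whose mean reached 1 FPKM and those that reach 1 FPKM in a library, the 3 Hox genes of the highest mean, and up to 4 members of each other list. Others were chosen after their values were seen. Some members enter the counts and are not reported here singly. The members and lists were chosen with earlier results of these data known. Python 3.11.15, pandas 2.3.3, numpy 2.4.6, matplotlib 3.10.9 and R 4.3.3 were used.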

Additional observations from a re-analysis of the deposited data

How the results depend on the processing

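Of 110 recomputed counts, 84 stayed within 1.5 times the reported count. Many of the 84 were counts of 0 that stayed at 0. A count of 3 that became 2 or 4 also fell within this limit, although its genes changed. The count of measured genes was recomputed under the 3 rescalings, the largest entry per gene and a filter at 5 FPKM. For Hox genes it was 0 in each, which these settings could not have changed, since the highest Hox mean was 0.226 FPKM. For head homeobox genes it was 12 in each except the last (10). With that filter Meis2 and Irx1 were not measured, which left 1 gene higher in the mutant in upper molars, 0 in lower molars and 0 in both jaws, and 0 higher in lower molars of controls. A pseudocount of 5 gave 0 genes higher in the mutant in lower molars and 0 in both jaws, 1 lower in lower molars, 1 higher in upper molars of mutants, 0 higher in upper molars of both genotypes and 0 higher in lower molars of controls. A pseudocount of 0.1 gave 1 gene lower in both jaws (Mkx).

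Rescaling by median of ratios and to a common total each gave 2 genes higher in the mutant in lower molars and 2 in both jaws (Meis2 and Shox2), and rescaling to a common upper quartile gave 3 and 2. The share of all genes called was not taken for these rescalings, pseudocounts or filters. The shares given earlier therefore do not apply to these counts. All 3 rescalings gave 1 gene higher in upper molars of mutants (Six2) and 0 in both genotypes. Under limma with Benjamini-Hochberg adjustment, 2 members were higher in the mutant (Meis2 and Shox2), as 113 of all 10537 genes were. Another 2 were lower in the mutant (Mkx and Six2), as 568 of all genes were. In upper molars 2 were higher (Mkx and Six2), as 81 of all genes were. That fit treats the jaws as replicates of the genotype with 1 residual degree of freedom, so a difference seen in 1 jaw enters its mean. It also gave every gene the same variance, so its calls amount to a cut on the mean difference. The deposited scale of the mutant lower library limits every lower molar difference. No paired analysis was possible because each group holds 1 library.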
